A study of Mus musculus with 4 samples.

Results

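Cells make cholesterol from acetyl-CoA through the mevalonate pathway, and the 7 genes described here are Hmgcs1, Idi1, Fdft1, Sqle, Lss and Cyp51, which encode enzymes of that pathway, and Insig1, which encodes its feedback inhibitor. They were taken as every non-control spot of the mouse expression arrays whose gene name in the scanner files was one of the 7. This gave 9 of 55681 probes, with 2 probes each for Hmgcs1 and Fdft1 and 1 for each other gene, and 7 of the 23620 genes that could be tested. All 9 probes passed the filter on dim signals, which kept a probe if its signal cleared the background on each array of the mutants or of the wild types.

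Total RNA from mouse ear tissue was labelled with Cy3 and hybridised to 4 one-colour arrays. The mutant group, named RelAE-MUT in the labels, comprised 2 K14Cre RelAfl/fl mice, and the wild-type group comprised 2 RelAfl/fl mice. All 4 ears had been treated with 2,4-dinitrofluorobenzene (DNFB), a contact allergen, for 48 h, so the arrays hold no untreated ear. K14Cre drives Cre recombinase from the keratin 14 promoter, which is active in basal keratinocytes, while both groups carry the floxed RelA allele (RelA is the p65 subunit of NF-kB). Cells that descend from K14-expressing cells, such as those of the upper epidermis, hair follicle and sebaceous gland, inherit a recombined allele, while dermal, immune, muscle and cartilage cells of the ear, in which the promoter is not known to be active, contribute RNA to the same extract. Cre was present in the mutants only, so that an effect of Cre cannot be told apart from an effect of the deletion. The labels give no age, sex or litter and no more on how the samples of a group were taken, so p-values measure the spread between these 4 samples.

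The mevalonate pathway is controlled by sterol level. When sterols are scarce, SCAP escorts SREBP2 (encoded by Srebf2) from the endoplasmic reticulum to the Golgi, where it is cut to release a transcription factor that activates the genes of the pathway. When sterols are plentiful, INSIG proteins hold SCAP back. In skin, the epidermis makes cholesterol for the lamellar lipids of its barrier, and sebaceous glands make sterols and other lipids for sebum.

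The bases before the transcription start of 3 genes whose mutant and wild-type values did not overlap (Hmgcs1, Idi1 and Lss) and of Cyp51, whose values overlapped, are shown with matches to motifs of factors known to act in sterol control. They come from RefSeq on GRCm38.p6, which held 5 of the 7 genes (Hmgcs1, Idi1, Lss, Cyp51 and Insig1), and each is 250 bases long, 5′ to 3′ on the gene's own strand. Capitals mark a sterol regulatory element core (TCACNCCAC) and the CCAAT box bound by NF-Y, which reads ATTGG on the opposite strand. Hmgcs1 lies on the plus strand of chr13:119690101-119690350, Idi1 on the plus strand of chr13:8885356-8885605, Lss on the plus strand of chr10:76531355-76531604, and Cyp51 on the minus strand of chr5:4104698-4104947.
Hmgcs1: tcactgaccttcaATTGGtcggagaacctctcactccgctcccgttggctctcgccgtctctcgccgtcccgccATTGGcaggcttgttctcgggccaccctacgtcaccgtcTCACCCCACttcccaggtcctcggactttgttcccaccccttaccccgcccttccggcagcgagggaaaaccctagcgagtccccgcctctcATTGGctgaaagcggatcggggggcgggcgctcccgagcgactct
Idi1: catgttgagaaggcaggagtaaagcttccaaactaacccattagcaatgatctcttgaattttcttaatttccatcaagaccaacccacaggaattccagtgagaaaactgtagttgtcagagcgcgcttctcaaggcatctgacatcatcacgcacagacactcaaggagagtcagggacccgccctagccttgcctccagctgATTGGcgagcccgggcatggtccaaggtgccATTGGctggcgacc
Lss: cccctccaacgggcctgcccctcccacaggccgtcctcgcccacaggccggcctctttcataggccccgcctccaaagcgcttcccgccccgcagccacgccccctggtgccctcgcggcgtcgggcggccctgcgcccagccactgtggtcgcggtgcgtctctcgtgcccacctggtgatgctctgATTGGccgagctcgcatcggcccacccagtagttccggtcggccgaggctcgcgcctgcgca
Cyp51: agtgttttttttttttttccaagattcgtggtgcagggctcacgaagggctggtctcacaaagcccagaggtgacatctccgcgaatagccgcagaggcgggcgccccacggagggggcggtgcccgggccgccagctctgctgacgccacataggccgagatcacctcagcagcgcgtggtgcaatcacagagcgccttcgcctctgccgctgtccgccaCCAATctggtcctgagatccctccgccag

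Searched on both strands, the sterol regulatory element core was found in 1 of the 5 windows, that of Hmgcs1, as TCACCCCAC starting 137 bases before the start. It was found in 1.053% of all 32851 windows of that length and in 0 of the windows of 12 other pathway enzymes. Only this form of the core was searched for, so a window without it may still hold another form of the element. A CCAAT box was in 5 of 5 windows and in 11 of 12 of the other enzymes, against 33.85% of all windows, and a GC box (GGGCGG) was likewise in 5 of 5 and 11 of 12, against 32.742%. Hmgcs1 had 3 CCAAT boxes, starting 237, 176 and 45 bases before the start, and Lss had 1, at 62 bases. The NF-kB consensus was in 0 of the 5 windows, in those of Ebp and Mvk among the other enzymes, and in 3.899% of all windows. No matches overlapped one another in the 5 windows. A match describes letters in these windows, and the arrays do not measure binding.

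Between 61.2% and 64.3% of the 59305 non-control spots of an array were well above background, 0 were saturated, and the arrays correlated with one another at r between 0.983 and 0.993. The 4 arrays sat on 1 slide and were read in the same scan. Part of a corner of the array of mutant mouse 2 was dark, with 76 dark spots there and 1 elsewhere. Where a gene is described singly, a probe lying there is named as such. The marker lists also hold Lep (adipocyte), Itgb4 (basal keratinocyte), Cd3d (T cell), Col3a1 (fibroblast) and Cdh5 (endothelium), whose probes lie there. The Rela probe, which may lie outside the deleted stretch and then checks nothing, gave 4.59 and 4.72 in mutants and 4.48 and 4.60 in wild types, a log2 fold change of 0.11 ± 0.12 (SE, 2 mice per group; adjusted p = 0.887), and it lies in that corner. Of 99 markers in 14 lists of cell types an ear can hold, 95 were tested and all 95 were well above background on every array. Krt14, the keratin of basal keratinocytes, gave log2 values of 8.13 and 8.13 in mutants and 7.68 and 8.10 in wild types.

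The comparison asked how the cholesterol synthesis genes of DNFB-treated ear stood in mutants relative to wild types. Levels are log2 intensities relative to the 75th percentile of the array, and differences are mutant minus wild type. Hmgcs1 and Lss had lower values in both mutants than in both wild types, by 1.24-fold and 1.37-fold. Idi1 was lower by a smaller amount, and Fdft1, Sqle, Cyp51 and Insig1 had overlapping groups. None of the 7 passed the test, since limma called 0 of them at an adjusted p under 0.05, where it called 0.0169% of all genes tested. At an unadjusted p under 0.05, 2 of the 7 were lower and 0 higher, where 3.55% of all genes were lower and 2.96% higher. In whole-ear RNA, fewer cells of a type and less RNA per cell cannot be told apart.

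**Figure D1:**
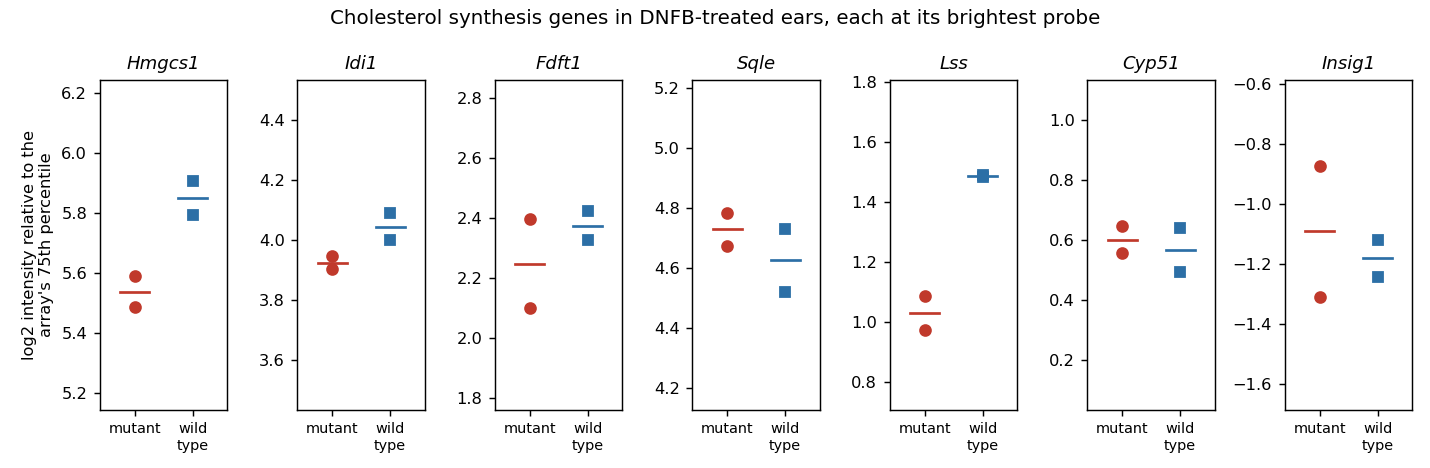
Log2 intensity minus that of the array's 75th percentile (y axis, every panel spanning the same height) for the 7 cholesterol synthesis genes at their brightest probe, with mutants as red circles left of wild types as blue squares; a point is a mouse and a line the mean of 2. Hmgcs1, Idi1 and Lss show both mutants below both wild types, while the points of the other 4 genes overlap.

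Hmgcs1 encodes the cytosolic HMG-CoA synthase, which condenses acetyl-CoA with acetoacetyl-CoA to give HMG-CoA, the precursor of mevalonate. Its brighter probe (chr13_random, 114793 to 114852, build mm9) gave 5.49 and 5.59 in mutants and 5.91 and 5.79 in wild types. The groups did not overlap, and the gap between them was wider than the range within either. The log2 fold change was -0.31 ± 0.11 (95% interval -0.61 to -0.01), with an unadjusted p of 0.0446 and an adjusted p of 0.757 from limma. In limma's fit over all probes, this probe had an unadjusted p of 0.0503, and its 95% interval reached 0.00065. A second, dim probe of Hmgcs1 gave intensities of 17.5 and 34.6 in mutants and 36.9 and 30.3 in wild types. It was not well above background in mutant mouse 1, its groups overlapped, and its log2 fold change was -0.35 ± 0.37 (adjusted p = 0.900 over all probes, of which limma called 0.0208%).

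Idi1 encodes isopentenyl-diphosphate isomerase, which converts the first isoprene unit of the pathway into its reactive isomer. Its probe (chr13, 8891524 to 8891583, mm9) gave 3.90 and 3.94 in mutants and 4.00 and 4.09 in wild types. Both mutants lay below both wild types, by a gap of 0.05, which was narrower than the range of 0.09 between the wild types. The log2 fold change was -0.12 ± 0.11 (95% interval -0.40 to 0.16, adjusted p = 0.883).

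Fdft1 encodes squalene synthase, which joins a pair of farnesyl diphosphates and commits the pathway to sterols. Its brighter probe is shown because its 60 bases are spread over 4241 bases of the genome (minus strand of chr14, 63765750 to 63769990, mm9), so that it crosses an intron.
Fdft1 probe: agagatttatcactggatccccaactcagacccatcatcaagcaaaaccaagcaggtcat
It gave 2.10 and 2.40 in mutants and 2.33 and 2.42 in wild types. Mutant mouse 1 was below both wild types and mutant mouse 2 lay between them. The log2 fold change was -0.13 ± 0.14 (95% interval -0.51 to 0.26, adjusted p = 0.903), and it was 0.02 without mutant mouse 1. A second, dim probe of Fdft1 lies in the damaged corner and gave intensities of 27.0 and 3.40 in mutants and 32.8 and 32.2 in wild types, the 3.40 of mutant mouse 2 not being above background. Averaging both probes moved the log2 fold change of Fdft1 to -0.90.

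Sqle encodes squalene epoxidase, a rate-limiting oxygenase of the sterol branch. Its probe (chr15, 59162688 to 59162747, mm9) gave 4.67 and 4.78 in mutants and 4.52 and 4.73 in wild types, so the groups overlapped. The log2 fold change was 0.10 ± 0.13 (95% interval -0.24 to 0.45, adjusted p = 0.911). Without wild-type mouse 1 it was -0.000970.

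Lss encodes lanosterol synthase, which folds squalene epoxide into lanosterol, the first sterol. Its probe (chr10, 76015992 to 76016051, mm9) gave 0.97 and 1.09 in mutants and 1.49 and 1.48 in wild types. The gap of 0.40 between the groups exceeded the range of 0.11 within the mutants and of 0.01 within the wild types. The log2 fold change was -0.46 ± 0.11 (95% interval -0.74 to -0.17), with an unadjusted p of 0.0103 and an adjusted p of 0.578. A log2 fold change below that of Lss was found in 4.06% of all genes tested, and below that of Hmgcs1 in 8.01%. Leaving out any 1 mouse kept Lss between -0.51 and -0.40 and Hmgcs1 between -0.37 and -0.25.

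Cyp51 encodes lanosterol 14-alpha-demethylase, a cytochrome P450 that acts directly after Lss. Its probe (minus strand of chr5, 4081471 to 4081530, mm9) gave 0.65 and 0.56 in mutants and 0.64 and 0.49 in wild types. The groups overlapped, and the log2 fold change was 0.03 ± 0.12 (95% interval -0.27 to 0.34, adjusted p = 0.972). It was -0.04 without wild-type mouse 2 and -0.01 without mutant mouse 1.

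Insig1 encodes an endoplasmic reticulum protein that retains SCAP and SREBP when sterols are plentiful, and it is itself a target of SREBP. Its probe (chr5, 28404246 to 28404305, mm9) gave -1.31 and -0.87 in mutants and -1.24 and -1.12 in wild types. The mutants stood on either side of the wild types, and their range of 0.44 was the widest of the 7 genes. The log2 fold change was 0.09 ± 0.18 (95% interval -0.39 to 0.57, adjusted p = 0.948), and it was -0.13 without mutant mouse 2.

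As a group, 4 of the 7 genes had a log2 fold change below 0, against 46.5% of all genes, and 3 of 7 had both mutants below both wild types, against 17.4% of all genes. For 0 of 7 were both mutants above both wild types, against 18.9%. Their median log2 fold change was -0.12, against 0.01 over all genes. The median was -0.0098 without mutant mouse 1, -0.07 without wild-type mouse 2, -0.14 without mutant mouse 2 and -0.16 without wild-type mouse 1. Mutant mouse 1 was lower than mutant mouse 2 for 6 of the 7, the exception being Cyp51, against 52.1% of all genes.

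Another 13 enzymes of the pathway came from a list written with earlier results of these data known. Log2 fold changes were below 0 for 12 of 13, against 46.5% of all genes, with Sc5d as the exception. The count was 11 with normexp background correction, with the mean of detected probes or without wild-type mouse 1. It was 10 without wild-type mouse 2 or without mutant mouse 1, and 13 without mutant mouse 2. Limma called 0 of the 13, and 0 had an unadjusted p under 0.05. For 8 of 13 both mutants were below both wild types, against 17.4% of all genes, and the median log2 fold change was -0.21. With the mean of detected probes, or with the damaged corner left out, the median was -0.15. Without wild-type mouse 1 that median was -0.14, and it was -0.13 without wild-type mouse 2 and -0.13 without mutant mouse 1. Over these 19 enzymes, the 6 described above included, 16 had values below 0 (15 with normexp) and 11 had both mutants below both wild types, with log2 fold changes between -0.46 and 0.14 and no adjusted p under 0.578.

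**Figure D2:**
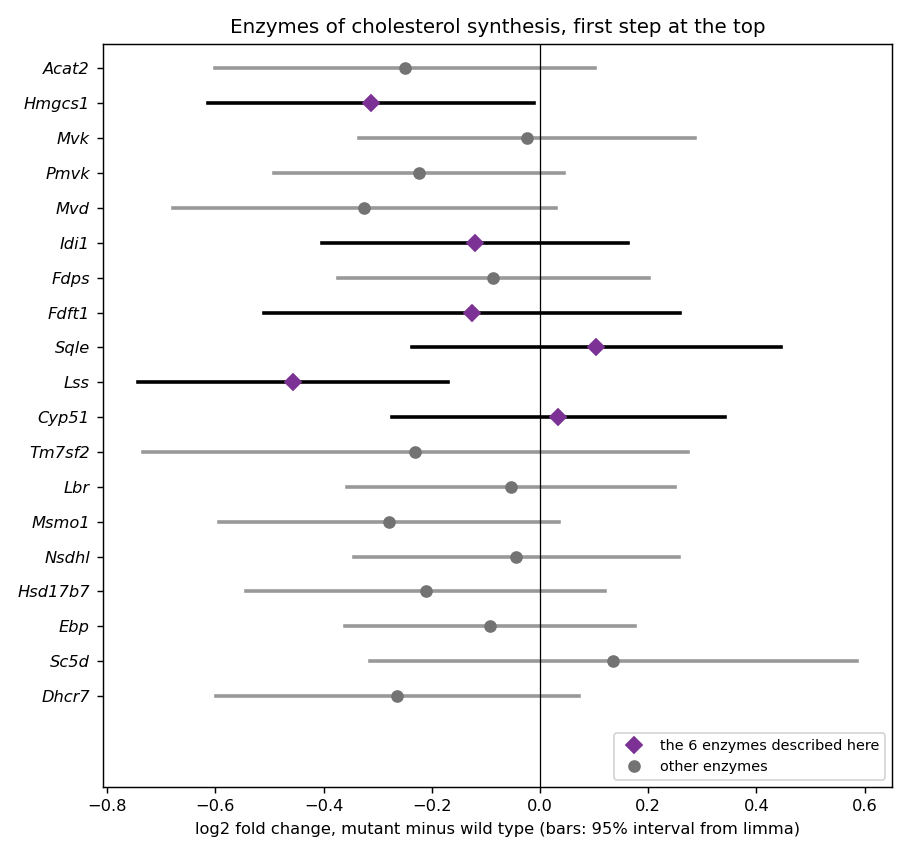
Log2 fold change, mutant minus wild type, with limma's 95% interval (x axis) for 19 enzymes of cholesterol synthesis in pathway order from the top, purple diamonds marking the 6 enzymes described gene by gene and grey circles the other 13. Of the 19 points, 16 lie left of 0, and the intervals of Hmgcs1 and Lss do not reach 0.

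Mvd, which makes isopentenyl diphosphate for Idi1 and whose probe lies in the damaged corner, gave 1.20 and 1.36 in mutants and 1.71 and 1.50 in wild types. Msmo1, which demethylates sterols after Cyp51, gave 5.36 and 5.48 in mutants and 5.77 and 5.63 in wild types. Both had no overlap, with log2 fold changes of -0.32 ± 0.13 and -0.28 ± 0.12 (adjusted p = 0.790 and 0.793).

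At the end of the pathway, Dhcr7, which reduces 7-dehydrocholesterol to cholesterol, gave 1.15 and 1.27 in mutants and 1.57 and 1.37 in wild types. Acat2, the cytosolic thiolase that supplies acetoacetyl-CoA at its beginning, gave -0.33 and -0.12 in mutants and 0.10 and -0.05 in wild types. Neither gene's groups overlapped, with log2 fold changes of -0.26 ± 0.13 and -0.25 ± 0.13. Sc5d, the sterol desaturase whose product Dhcr7 uses, gave 2.06 and 2.47 in mutants and 2.13 and 2.13 in wild types, with a log2 fold change of 0.14 ± 0.17. The value of mutant mouse 2 was the high one for Sc5d, and without that mouse the log2 fold change was -0.07.

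Counts of enzymes by mouse describe single arrays and are not a test, since genes of a pathway are not independent. Of the 19 enzymes, mutant mouse 1 was below both wild types for 16 and mutant mouse 2 for 11, where over all genes these shares were 33.9% and 31.0%. Mutant mouse 1 was below mutant mouse 2 for 17 of the 19, and for 11 of the 14 sebaceous gland markers. Wild-type mouse 1 was above wild-type mouse 2 for 11 of the 19, against 44.7% of all genes. Against the wild-type mean, both mutants were on the same side for Lss, at -0.51 and -0.40, and for Hmgcs1, at -0.36 and -0.26. They were on opposite sides for Insig1, at -0.13 and 0.31, and for Sc5d, at -0.07 and 0.34.

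**Figure D3:**
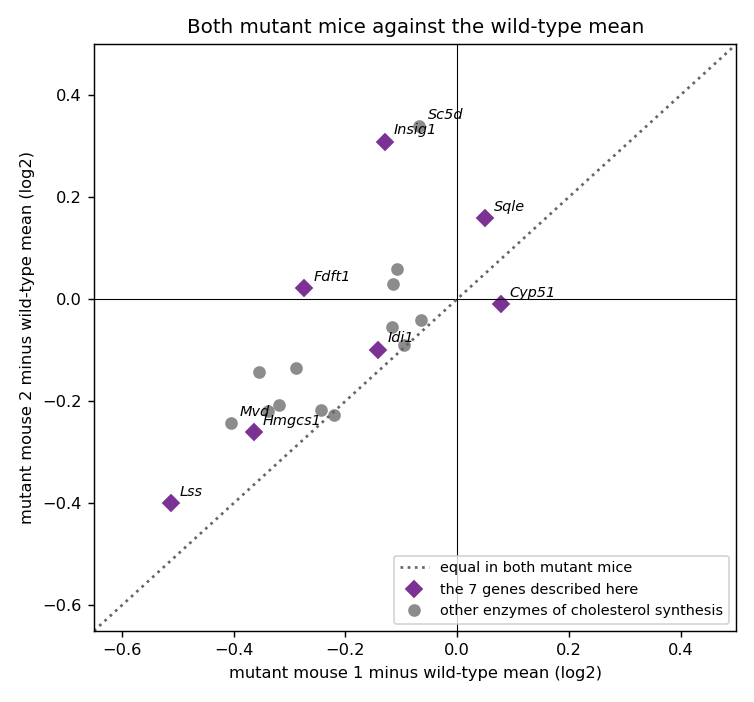
Difference of mutant mouse 2 (y axis) and of mutant mouse 1 (x axis) from the wild-type mean, in log2 units, for the 7 genes (purple diamonds) and the other 13 enzymes (grey circles), the dotted line marking equal values. Most points lie above the dotted line, since mutant mouse 1 was lower than mutant mouse 2 for 17 of 19 enzymes, with Lss and Hmgcs1 far down to the left.

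Regulators of the pathway had differences on both sides of 0. Of 7 genes in a list of SREBP regulation and other sterol targets, 6 were tested, of which 5 were higher, 1 lower (3 lower with quantile normalization) and 0 called by limma (0 also at an unadjusted p under 0.05). Their median log2 fold change was 0.03, and it was -0.02 if wild-type mouse 1 is left out, -0.01 if wild-type mouse 2 is, -0.10 without mutant mouse 2 and 0.10 without mutant mouse 1. Srebf2 gave 0.90 and 1.06 in mutants and 1.06 and 1.15 in wild types, with a log2 fold change of -0.12 ± 0.12. A second, dimmer Srebf2 probe gave -0.68 and -0.63 in mutants and -0.29 and -0.30 in wild types, so that the probes differed in whether the groups overlapped. In limma's fit over all probes, the second probe's log2 fold change was -0.36 ± 0.11 (unadjusted p = 0.0239, adjusted p = 0.691). The counts of the list were taken at the brightest probe of each gene. Insig2, the partner of Insig1, was at 0.00 ± 0.15, and Srebf1, which encodes the related factor SREBP1, was at 0.11 ± 0.20. Scap, the gene of the list that was not tested, gave intensities of 12006 in mutant mouse 1 and 11356 and 11992 in wild types. Its only spot was an outlier in mutant mouse 2, so it had no value there.

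Among SREBP targets of fatty acid synthesis, 5 of 10 were higher and 5 lower (4 lower with median centring, 6 with quantile normalization), with 0 called by limma and a median of 0.01. At an unadjusted p under 0.05, where 3.55% of all genes were lower and 2.96% higher, 1 of the 10 was lower. That gene was Acss2, the cytosolic acetyl-CoA synthetase, with 1.33 and 1.15 in mutants and 1.91 and 1.60 in wild types and a log2 fold change of -0.52 ± 0.15 (adjusted p = 0.692). The median was -0.08 without mutant mouse 2, -0.01 without wild-type mouse 2 and 0.05 without mutant mouse 1. Scd1 and Scd2, both stearoyl-CoA desaturases, had no overlap in opposite directions. Scd1 gave 5.07 and 5.32 in mutants and 5.66 and 5.37 in wild types, a difference of -0.32 ± 0.16. Scd2 gave 3.91 and 4.25 in mutants and 3.65 and 3.74 in wild types, a difference of 0.39 ± 0.15.

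In the list of LXR and efflux, which removes cholesterol from cells, 6 of 6 genes had log2 fold changes below 0 (5 with median centring), with a median of -0.03, 0 called and 0 at an unadjusted p under 0.05. Without mutant mouse 1, 1 of 6 was below 0 with a median of 0.04, and without wild-type mouse 1, 2 of 6 with 0.03. The widest of the differences was Nr1h3 (LXR alpha), at -0.32 ± 0.22. Of 7 genes for storage and sulfation, 5 were lower (6 with quantile normalization or normexp). Of the 5, 4 had no overlap, where 17.4% of all genes were lower without overlap. The list had a median of -0.13 and 0 called (0 at an unadjusted p under 0.05). That median was -0.03 if wild-type mouse 1 is left out and -0.24 if wild-type mouse 2 is. Soat2, which esterifies cholesterol, gave -1.20 and -2.25 in mutants and -1.02 and -0.94 in wild types (-0.75 ± 0.36), the low value being that of mutant mouse 2. Soat1 was at -0.28 ± 0.18, Npc2, a lysosomal cholesterol carrier, at -0.23 ± 0.10, and Sult2b1, the cholesterol sulfotransferase of the epidermis, at 0.16 ± 0.13. In the isoprenoid branch, which makes ubiquinone, dolichol and prenyl groups, 5 of 7 were lower (4 with normexp, 6 with quantile normalization) with a median of -0.06. That median was -0.13 without mutant mouse 1, -0.12 if wild-type mouse 1 is left out and -0.03 if wild-type mouse 2 is. Limma called 0 of them, and 1 was under an unadjusted p of 0.05, Pdss2 (ubiquinone side chain) at -0.31 ± 0.11 (adjusted p = 0.760). Of all genes tested, 3.55% were lower at an unadjusted p under 0.05.

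No marker of any cell type list was called by limma, and the lists are described by their counts. In the sebaceous list 13 of 14 markers were lower (12 with normexp), 10 without overlap and 5 at an unadjusted p under 0.05, with 0 called by limma and a median of -0.32. Of all genes tested, 46.5% were lower, 17.4% lower without overlap and 3.55% lower at an unadjusted p under 0.05. The summed level of the 14 markers, in units of the array's 75th percentile, was 223 and 255 in mutants and 289 and 272 in wild types, and all 14 were above background on every array. This sum, like the other summed levels given, adds linear values, so that the brightest markers weigh most. Krt79, the brightest of the 14, gave 7.17 and 7.37 in mutants and 7.40 and 7.43 in wild types, a difference of -0.15 ± 0.12. Awat1, a wax synthase of sebocytes, gave 2.03 and 2.06 in mutants and 2.80 and 2.70 in wild types, a difference of -0.70 ± 0.11 (adjusted p = 0.393). Elovl3, a fatty acid elongase of sebocytes, gave 2.71 and 2.68 in mutants and 3.56 and 3.31 in wild types. Far2 and Pparg were at -0.55 ± 0.19 and -0.42 ± 0.11, and the marker with a higher mean was Awat2, at 0.19 ± 0.30. Soat1 and Scd1 stand in this list and in the lipid lists as well. Without wild-type mouse 1 the median of the sebaceous list was -0.19.

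All 10 adipocyte markers had log2 fold changes below 0, 6 without overlap and 4 at an unadjusted p under 0.05, with 0 called and a median of -0.31. Over all genes tested, these 3 shares were 46.5%, 17.4% and 3.55%. Without mutant mouse 2, 7 of the 10 adipocyte markers were below 0, and without wild-type mouse 1, 9 of 10, each with a median of -0.27. All 10 stayed below 0 without mutant mouse 1 (median -0.41) or wild-type mouse 2 (-0.34). The summed level of the 10 markers was 76.9 and 64.0 in mutants and 86.0 and 80.1 in wild types. Lpl (lipoprotein lipase) gave 2.43 and 2.30 in mutants and 2.81 and 2.81 in wild types, a difference of -0.45 ± 0.11. Basal keratinocyte markers were higher for 5 of 6, with a median of 0.13 and summed levels of 795 and 835 in mutants and 673 and 805 in wild types. Differentiated keratinocyte markers were higher for 3 of 8 and lower for 5, with a median of -0.13. Without mutant mouse 1 the median of the differentiated list was 0.02, and that of the basal list was 0.02 if wild-type mouse 1 is left out and 0.22 if wild-type mouse 2 is. Of the other cell types, T cell markers were lower for 5 of 5 (median -0.16; -0.07 without mutant mouse 1, -0.26 without mutant mouse 2, -0.11 if wild-type mouse 1 is left out and -0.32 if wild-type mouse 2 is), endothelial markers for 3 of 4 (-0.14), macrophage markers for 3 of 5 (-0.13) and neutrophil markers for 3 of 5 (-0.09). The endothelial median was -0.02 without mutant mouse 2, -0.01 if wild-type mouse 1 is left out and -0.26 if wild-type mouse 2 is. With the damaged corner left out, T cell markers were lower for 4 of 4 (-0.13) and endothelial markers for 2 of 3 (-0.16). The medians of the basal keratinocyte and fibroblast lists were then 0.10 and -0.02. The macrophage median was -0.03 without mutant mouse 2 and -0.07 without wild-type mouse 1. The neutrophil median was 0.10 without mutant mouse 1, and 0.03 and 0.04 when wild-type mouse 1 or 2 was left out. Medians for fibroblasts, Schwann cells and cartilage were 0.01, 0.06 and 0.01. The proliferation list was higher for 5 of 5 (0.16), with a median of -0.10 without wild-type mouse 1. The part of these cell types in the values of the cholesterol synthesis genes was not tested.

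**Figure D4:**
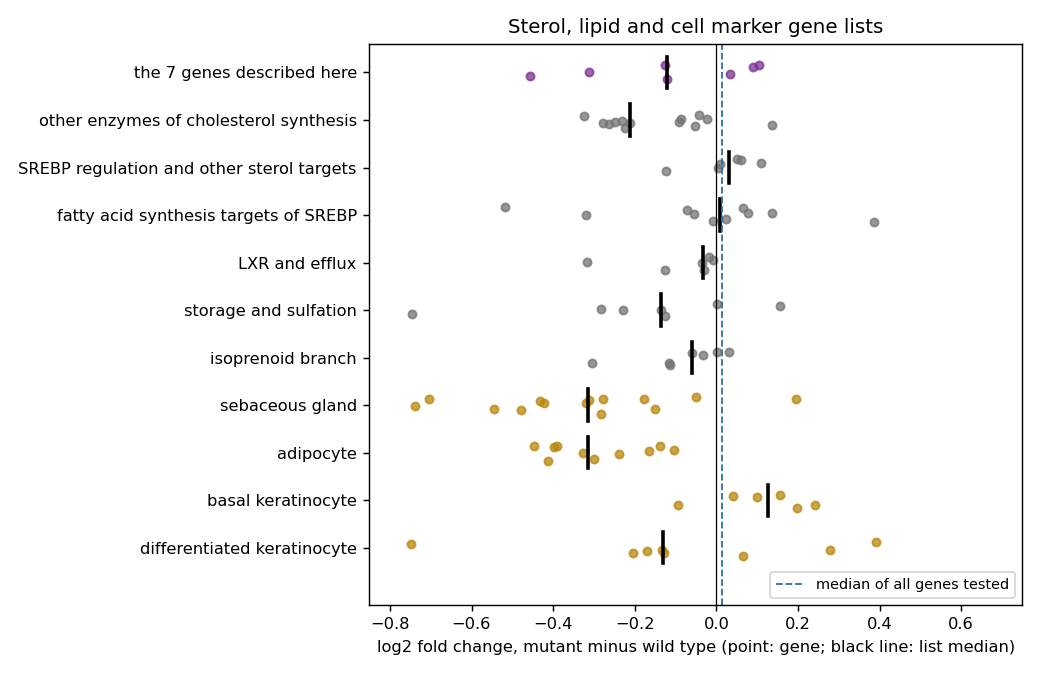
Log2 fold change, mutant minus wild type (x axis), of each gene (points) in lists of sterol and lipid metabolism (purple and grey) and of cell markers (gold), with a black line at the list median and a dashed line at the median of all genes tested. Among the lists plotted, medians run from -0.32 for the sebaceous gland to 0.13 for basal keratinocytes, with the 7 genes at -0.12.

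The mean profile of the 7 genes over the 4 arrays, each gene centred on its own mean, was -0.13 and 0.02 in mutants and 0.04 and 0.07 in wild types. By Euclidean distance over the 4 arrays, the 8 genes with a full symbol nearest to it, members left out and clone or predicted names skipped, were Ap5b1, Slitrk6, Stau1, Ivns1abp, Trub2, Dop1a, Dnajc17 and Adipor2, at distances from 0.00986 to 0.0250, where the median over all 23620 genes was 0.289. The 7 genes themselves did not all lie near their mean profile, with Idi1 at 0.083 and Fdft1 at 0.116. Hmgcs1, Sqle and Cyp51 were at 0.229, 0.251 and 0.256. Insig1 and Lss, at 0.296 and 0.346, were farther from it than the median gene. Among the genes of the sterol and lipid lists, Srebf2 came nearest at 0.0457, in place 89. With 4 arrays, many genes lie near any shallow profile.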

How the data were processed

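RNA from DNFB-treated ears of 2 mutant and 2 wild-type mice was labelled from 100 ng per sample, per the labels' protocols. The deposited spot intensities are processed signals of Agilent Feature Extraction 10.7.3.1, per the file headers, with background subtracted, arrays left unscaled and mm9 probe positions. The deposited raw mean and local background intensities carry no correction, per the file headers, and the deposited flags, scores of 0 or 1, mark spots above background, saturated or outlying. The authors' series table holds each spot's linear ratio of processed intensity to the array median; the values themselves showed this, matching it within 1.46e-05 on the log2 scale.

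After 3671 control spots and outlier spots were left out, log2 intensities were set relative to the array's 75th percentile (intensity 589 to 664) and spots of a probe averaged. A tested probe had a value on every array and cleared the background on each array of 1 group or the other (33664 probes). A gene was read at its brightest tested probe. Symbols were updated through RefSeq accessions (15727 of 23620 genes). Mutant minus wild type was fitted in limma 3.58.1 (lmFit, eBayes) under R 4.3.3 (files read with data.table, release 1.17.8; pandas 2.3.3 and matplotlib 3.10.9 in python 3.11.15 for tables and figures), two-sided, with Benjamini-Hochberg adjustment over all genes at 0.05, and separately over all probes for probe values. Errors with ± are limma's standard errors with 2 mice per group, on 2 residual and 2.5 prior degrees of freedom. The script was tested on simulated data. With 2 arrays per group, their number limits the precision, and an exact permutation of 2 against 2 cannot go below p = 0.333.

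The 7 genes and all lists were chosen with earlier results of these data known. Some genes of the pathway lists are not reported here and were left out of the counts and medians of those lists. Genes named beyond them are up to 6 with the largest difference in each pathway list, Srebf2 and Insig2, up to 4 of each marker list, Rela, and the 8 nearest in profile. Sc5d and Awat2, single exceptions in their lists, were named after their values were seen, as were Krt79 and Scap. Alternatives were quantile normalization, median centring, the percentile taken only from probes detected on all arrays, normexp with an offset of 50, the series table's values, no filter or a stricter filter on dim probes, the mean of detected probes, eBayes with trend and robust, array weights, leaving out the damaged corner, a replicate block, and leaving out each mouse.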

Additional observations from a re-analysis of the deposited data

How the results depend on the processing

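Of the 7 cholesterol synthesis genes, limma called 0 under every alternative run. Of 119 alternative log2 fold changes of the 7 genes, 114 kept their direction. The other 5 turned when 1 mouse was left out: leaving out 1 mouse gave -0.00097 to 0.21 for Sqle, -0.27 to 0.022 for Fdft1, -0.040 to 0.11 for Cyp51 (both reversals, -0.040 and -0.0098, were below 0) and -0.13 to 0.31 for Insig1. Among other named genes it gave -0.069 to 0.34 for Sc5d, -0.15 to 0.37 for Srebf1, -0.16 to 0.16 for Insig2 and -0.23 to 0.61 for Awat2. Insig2, at 0.00, also turned to -0.00453 with quantile normalization, -0.0105 with the percentile over probes above background and -0.00358 with normexp. Of the 19 enzymes, 16 were lower, 15 with normexp, 15 with the mean of detected probes and 14 (without mutant mouse 1) to 17 with 1 mouse left out.

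Mice 1 and 2 of each group are so numbered in the titles, with no word on what a shared number stands for, and deviations of same-numbered mice correlated at -0.20, so the numbers were not taken to pair the mice. With the replicate block, 0 genes were called higher and 1 lower, as with the crossed pairing, which was added after seeing the data (0 higher, 1 lower), and 0 of the 7 genes were called under either. Of all genes, 2 were called higher and 2 lower. Quantile normalization, the percentile over probes above background, no filter and the stricter filter each gave 0 higher; no filter and the stricter filter gave 1 lower. Trend and robust eBayes gave 8 higher and 6 lower, and leaving out 1 mouse gave 0 to 10 higher and 0 to 70 lower (the 10 and 70 without mutant mouse 1), a lone mouse being assumed to vary like the other group. The cause of these shifts was not tested. Dim second probes of Hmgcs1 and Fdft1, near background, limit what they show.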

Other observations

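Hair follicle genes differed between the mutants far more than the cholesterol synthesis genes did. Keratins of the inner root sheath, which line the growing hair, were high in mutant mouse 2, and the summed level of 10 hair follicle markers was 20.4 and 130 in mutants and 16.3 and 6.59 in wild types, in units of the array's 75th percentile. Of the 10 markers 9 were higher and 6 had no overlap, with a median log2 fold change of 1.67, 0 called by limma and 1 at an unadjusted p under 0.05. Of all 23620 genes tested, 12643 were higher, 18.9% higher without overlap and 2.96% higher at an unadjusted p under 0.05. The median of the hair follicle list was 0.50 without mutant mouse 2 and 2.84 without mutant mouse 1, and 1.02 without wild-type mouse 2. The wild types also differed, with Krt71 at 3.33 and 6.30 in mutants and 2.79 and -0.07 in wild types. Skeletal muscle markers were lower for 7 of 7, with a median of -0.24 (0.02 without mutant mouse 2, where 2 of 7 were lower, -0.51 without mutant mouse 1, -0.37 if wild-type mouse 2 is left out and -0.12 if wild-type mouse 1 is) and summed levels of 232 and 166 in mutants and 260 and 216 in wild types. Their groups overlapped for 5 of the 7. Of all genes tested, 46.5% were lower and 17.4% lower without overlap.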
